A study of Mus musculus with 19 samples.

Results

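The genes of the microRNA machinery were examined in RNA sequencing of the hippocampal CA1 region of young and old mice. The set comprised 10 genes, taken by symbol from the Ensembl identifiers of the count tables: Drosha and Dgcr8 for nuclear processing, Xpo5 for export, Dicer1 for dicing, and Ago1, Ago2, Ago3, Ago4, Tnrc6a and Tnrc6b for silencing. All 10 were found among the 48709 genes of the tables, and all 10 were among the 19286 genes with enough reads to be tested. The 19 libraries came from male C57B/6J wild-type mice and were numbered as separate samples in each group, without saying that each was 1 animal. The young group (n = 6, 3 months) and the old control group (n = 6, 16.5 months) received lipid nanoparticles with control oligonucleotides. The old anti-miR-mix group (n = 7, 16.5 months) received nanoparticles with inhibitors of 3 microRNAs, namely miR-146a-5p, miR-148a-3p and also miR-181a-5p. Per the study's methods the particles were injected into the dorsal hippocampus on both sides, so injection and particles were common to all groups. Mice of these 3 kinds were trained in a water maze in the study, and whether the sequenced mice were among them was not stated. None of these 19 libraries came from an uninjected mouse or from a young mouse given the inhibitors. CA1 tissue holds all its cell types together, so fewer cells of a type and less RNA per cell cannot be told apart.

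MicroRNAs are cut in steps from long hairpin-bearing transcripts. In the nucleus Drosha, with its partner DGCR8, releases the precursor hairpin, which exportin-5 (the product of Xpo5) carries to the cytoplasm. There Dicer removes the loop, and one strand of the resulting duplex is loaded into an Argonaute protein. Argonautes recruit the GW182 proteins encoded by the Tnrc6 genes, which in turn bring deadenylases and decapping enzymes to the target messenger RNA. Several mRNAs of this machinery are themselves known to carry microRNA sites, and the inhibitors given here block 3 microRNAs that are loaded into it.

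The sequences below show what the treatment was directed against. The mature microRNAs are from RefSeq (GRCm38.p6), written 5′ to 3′ with the seed (positions 2 to 8) in capitals. The inhibitors are the oligonucleotides listed by the study, with the part that pairs with the seed in capitals. The inhibitors matched microRNA positions 2 to 21 of miR-146a-5p, 3 to 21 of miR-148a-3p and 3 to 23 of miR-181a-5p as exact reverse complements.
miR-148a-3p: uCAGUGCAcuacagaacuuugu
inhibitor of miR-148a-3p: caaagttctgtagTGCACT
miR-181a-5p: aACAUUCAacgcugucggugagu
inhibitor of miR-181a-5p: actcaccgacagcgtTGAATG
miR-146a-5p: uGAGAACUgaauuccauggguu
inhibitor of miR-146a-5p: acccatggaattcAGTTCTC
negative control: taacacgtctatacgccca
The 3 seeds differed from one another. In GRCm38.p6, miR-148a-3p lies at chr6:51269829-51269850 on the minus strand and miR-146a-5p at chr11:43374435-43374456 on the minus strand. The mature miR-181a-5p is encoded at chr1:137966468-137966490 and at chr2:38852741-38852763, both on the plus strand.

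The 3′ untranslated regions (3′UTRs) of the machinery genes were searched, on the strand of the mRNA, for the reverse complements of positions 2 to 8, which are TGCACTG for miR-148a-3p, TGAATGT for miR-181a-5p and AGTTCTC for miR-146a-5p. These words do not overlap one another in the regions found. A miR-148a-3p match was present in 8 of the 10 genes, with 15 matches in total, against 14.9% of the 15348 tested genes with an annotated 3′UTR. A miR-181a-5p match was present in 4 genes (10 matches) against 18.1% of all genes, and a miR-146a-5p match in 3 genes (4 matches) against 12.4%. Drosha and Xpo5 had no match to any of the 3. The machinery genes have long 3′UTRs, with a median of 3766.5 bases against 1165.5 bases for all genes, which raises the number of matches. Per kilobase of 3′UTR, miR-148a-3p matches stood at 0.284 in the machinery genes and 0.107 in all genes, miR-181a-5p matches at 0.189 and 0.142, and miR-146a-5p matches at 0.076 and 0.087. In the target predictions listed by the study, 7 of the 10 genes were predicted targets of miR-148a-3p, against 3.16% of the genes tested. These were Dgcr8, Dicer1, Ago1, Ago2, Ago4, Tnrc6a and Tnrc6b. Tnrc6a was also listed for miR-146a-5p, and Ago2 and Tnrc6b for miR-181a-5p. A match or a prediction describes the sequence and is not a measured site.

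The miR-148a-3p matches that are followed by an A, an arrangement known to favour binding, are shown here with their surroundings. The sequences are in mRNA sense from the GENCODE M21 transcripts (GRCm38), and the match is in capitals.
Dgcr8, chr16:18255185-18255206, minus strand: agtacactataTGCACTGacaa
Ago1, chr4:126435387-126435408, minus strand: atgtgtctgaaTGCACTGagtc
Ago2, chr15:73105650-73105671, minus strand: cataggatctaTGCACTGaagt
Ago2, chr15:73102579-73102600, minus strand: ctcctgtaagtTGCACTGatct
Ago3, chr4:126339150-126339171, minus strand: atcagtaacatTGCACTGaccg
Ago4, chr4:126493106-126493127, minus strand: ctcagaatggtTGCACTGagtc
Tnrc6a, chr7:123193315-123193336, plus strand: gcttttaccttTGCACTGagtg
These 7 matches lay in 6 genes. Dicer1 and Tnrc6b had miR-148a-3p matches followed by another base. The map of seed matches shows where all 29 matches lie.

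**Figure D1:**
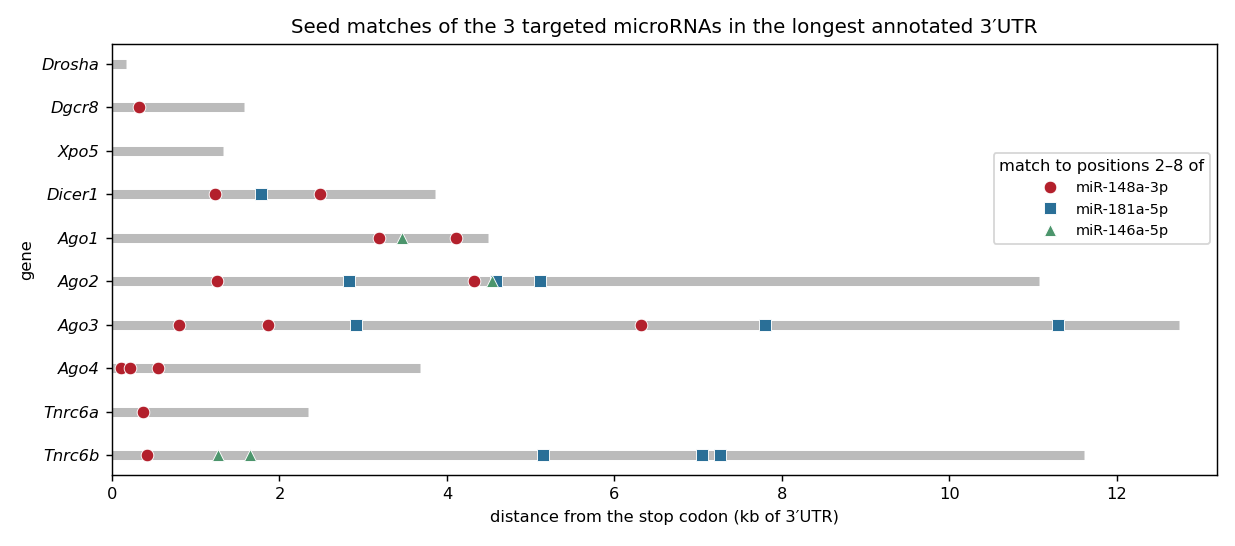
Position of matches to positions 2 to 8 of the 3 targeted microRNAs in the longest annotated 3′UTR of each machinery gene, as distance from the stop codon in kilobases. Grey bars are the 3′UTRs, and Drosha and Xpo5 are the 2 genes with no match.

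The libraries held between 26653511 and 38908947 reads assigned to genes. The members had between 546 reads (Ago4) and 6152 reads (Tnrc6b) in a library, and counting error was not separated from the spread between libraries. Old control replicates 5 and 6 were more alike than any other pair within a group, with a chi-square of 2.18 per degree of freedom over 12780 genes, against 6.10 for the next pair. They still differed by more than sampling noise and were kept as separate libraries, and the results that rest on them are also given with the pair counted once. The deposited log2 values differed from those computed from the counts by a slope multiplied by a whole number from 1 to 4 per library. This number was inferred from that difference and is not a label in the deposited table. It is here called the processing group, a name chosen for this text, and what it stands for is not known. Markers of CA1 pyramidal neurons were present in every library, at a sum of 778 to 1136 reads per 1000000 reads (CPM) for 7 genes. The sums were 129 to 166 CPM for 6 CA3 markers and 94.5 to 186 CPM for 7 dentate granule markers. Sums over different genes do not measure how pure the tissue was.

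The members were well expressed. On the scale of CPM per kilobase of exonic length, which allows different genes to be compared, Drosha, the nuclear endonuclease, had the highest level, at 24.4 ± 1.13 (SD, n = 19). Ago1 followed at 15.3 ± 0.429, and its range did not overlap that of Drosha. Tnrc6a (10.7 ± 0.672) and Ago2 (10.5 ± 0.663) could not be ordered, since Tnrc6a was the higher in 10 of the 19 libraries. Xpo5 stood at 9.08 ± 0.343 and was lower than Ago2 in all 19 libraries. Tnrc6b (6.80 ± 0.419) and Ago3 (6.68 ± 0.658) again could not be ordered. Dicer1 (5.54 ± 0.147), Dgcr8 (3.80 ± 0.239) and Ago4 (2.98 ± 0.183) closed the order, each above the next in all 19 libraries. The highest level was 8.17 times the lowest on this scale.

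Part of this order depended on the length assigned to each gene. With the longest transcript in place of all exonic bases, a scale added after seeing the data, Xpo5 (12.3 ± 0.463 CPM per kilobase) was above Ago2 (10.7 ± 0.674) in all 19 libraries, the reverse of the order above. Tnrc6a (16.6 ± 1.04) then lay above Xpo5 in all 19 libraries and below Ago1 (17.2 ± 0.482) in 15 of them. Dicer1 (9.42 ± 0.249) moved above Tnrc6b (9.28 ± 0.572) in 16 libraries, and Tnrc6b was above Ago3 (7.09 ± 0.699) in all 19. On both scales Drosha was highest, Ago1 second, Dgcr8 next to last and Ago4 lowest, although Ago3 exceeded Dgcr8 (6.77 ± 0.426) in only 14 libraries on the second.

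The members also varied little between libraries of a group. The median within-group SD of log2 CPM was 0.0707 over the 10 members and 0.146 over all genes tested. Ago1 had an SD of 0.0295, which was lower than in all but 0.0467% of the genes, and Dicer1 an SD of 0.0395, at the 0.674th percentile. Ago3 was the most variable member, with an SD of 0.0944 at the 30.0th percentile. Genes of high level have a smaller counting error, and 6 of the members stood at or above the 89.1th percentile of level.

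**Figure D2:**
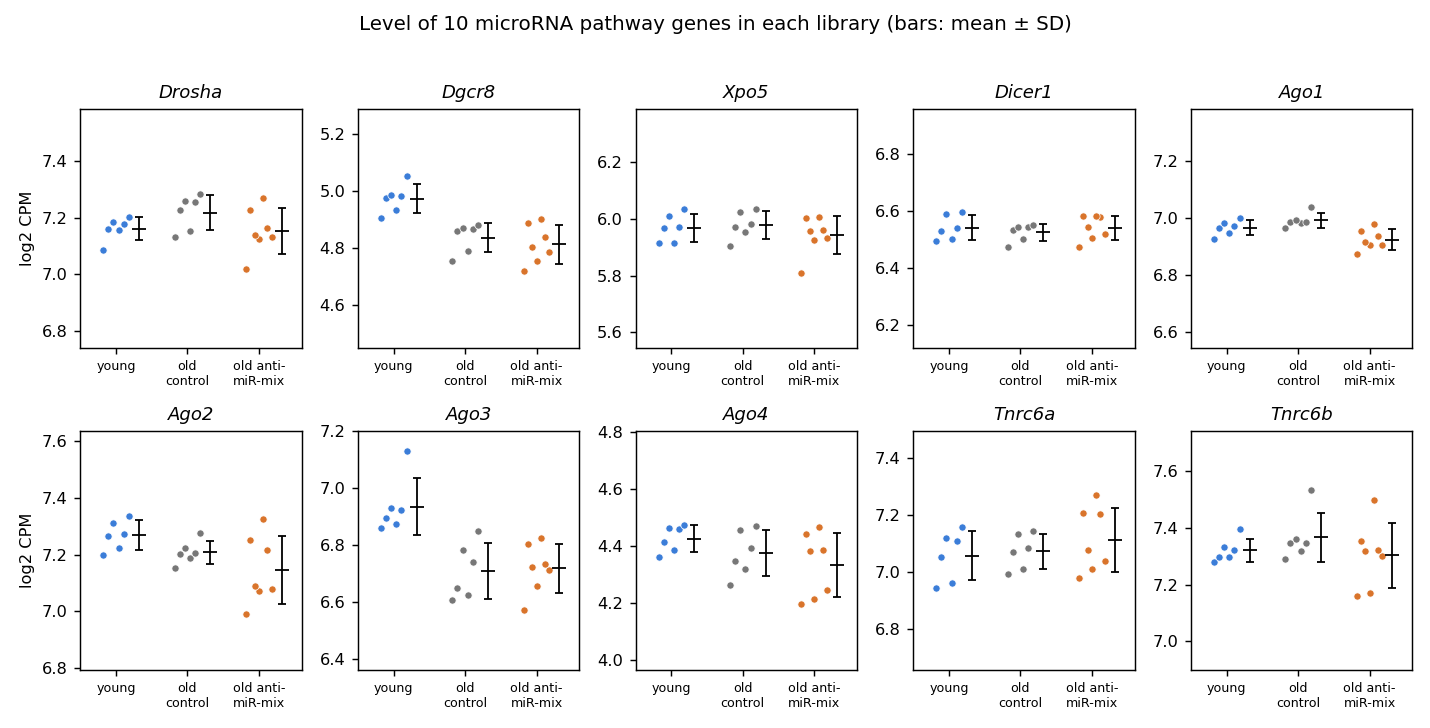
Log2 CPM of each of the 10 genes in every library, by group, with the mean and SD as bars beside the points. All panels span the same number of log2 units. The young libraries of Ago3 and Dgcr8 lie above all old libraries, and the groups overlap in the other 8 genes.

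To ask whether the machinery changes with age, old control was compared with young. Ago3, one of the 4 Argonautes, fell by 0.23 on the log2 scale and was the only member called. The other 9 members did not pass the test. Over all genes, 2.67% were called in either direction and 1.34% were called lower (edgeR's quasi-likelihood test, Benjamini-Hochberg adjusted p under 0.05), and 18.1% had an unadjusted p under 0.05. In 2 members, Ago3 and Dgcr8, the groups did not overlap, and both were lower in every old control library than in every young library. Over all genes 2.54% of groups did not overlap. The median log2 fold change was -0.0035 over the 10 members and 0.0064 over all genes, and 5 members were negative.

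To ask whether the inhibitors alter the machinery that their targets work in, old anti-miR-mix was compared with old control. None of the 10 members was called by edgeR, and 1 had an unadjusted p under 0.05, against 0.669% called and 10.5% with an unadjusted p under 0.05 over all genes. DESeq2 called 0 members too. In no member were the groups separate, while 0.498% of all genes had groups that did not overlap. The median difference was -0.039 log2 units over the members and 0.00035 over all genes, with 7 members negative. The 10 intervals together reached from -0.16 to 0.14 log2 units, or, in percent, from -10.6% for Tnrc6b to 10.5% for Tnrc6a.

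The old anti-miR-mix group was also compared with young, a comparison in which age and treatment differ together. Ago3 fell by 0.22 log2 units and Dgcr8 fell by 0.16, and the other 8 members did not pass the test. Over all genes 6.2% were called, 1.63% were called lower, and 19.6% had an unadjusted p under 0.05. The groups of Ago3 and Dgcr8 again did not overlap, against 2.42% of all genes. The median was -0.034 over the members and 0.0028 over all genes. This comparison shares its young libraries with the first and its treated libraries with the second, and repeated results across them are not separate observations.

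**Figure D3:**
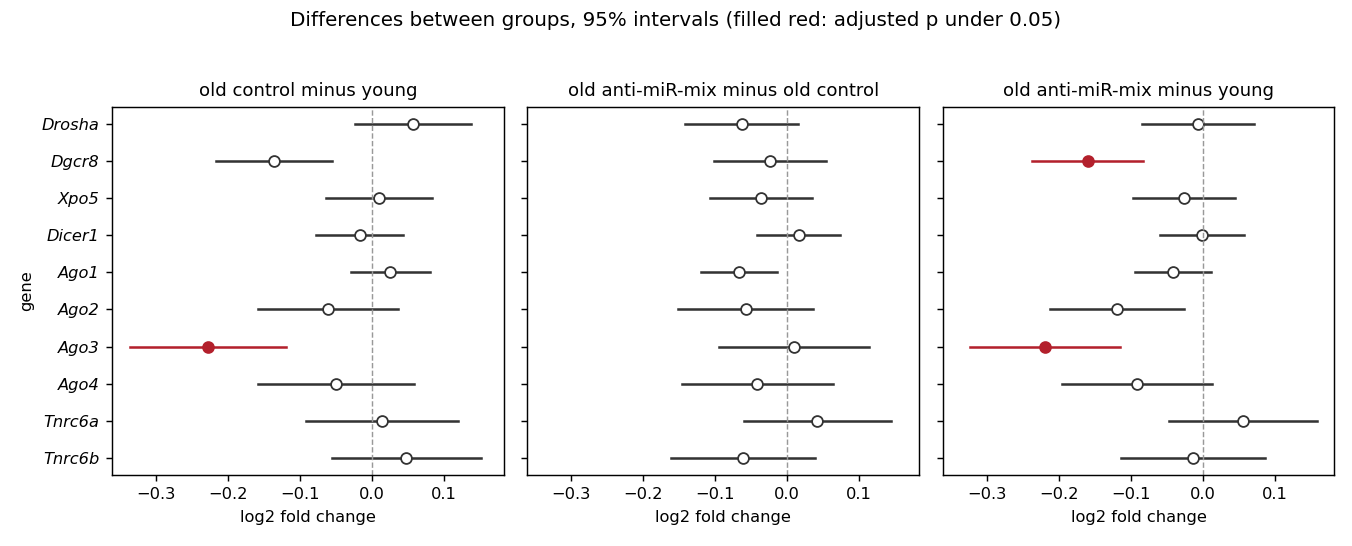
Log2 fold change of each member in the 3 comparisons, with 95% intervals. Filled red points passed an adjusted p of 0.05: Ago3 in old control against young, and Ago3 and Dgcr8 in old anti-miR-mix against young. In old anti-miR-mix against old control no point is filled.

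In the nuclear step, Drosha makes the first cut in the primary transcript. In log2 CPM it ranged from 7.09 to 7.20 in young (median 7.17), from 7.13 to 7.28 in old control (median 7.24) and from 7.02 to 7.27 in old anti-miR-mix (median 7.14). The groups overlapped, and no group stood apart. The log2 fold change was 0.057 with age (95% interval -0.024 to 0.14, adjusted p = 0.473, edgeR) and -0.063 with treatment (-0.14 to 0.014, adjusted p = 0.582).

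Dgcr8 encodes the double-stranded RNA binding partner that places Drosha on the hairpin. Its log2 CPM ranged from 4.90 to 5.05 in young (median 4.98), from 4.76 to 4.88 in old control (median 4.86) and from 4.72 to 4.90 in old anti-miR-mix (median 4.80). All 13 old libraries lay below the lowest young library, although the highest treated library, at 4.903, was close to the lowest young library, at 4.904. The difference from young was -0.14 ± 0.039 (SE) in old control, a change of -9.01% (95% interval -13.9 to -3.81%) with an adjusted p of 0.0603 that missed the threshold. In old anti-miR-mix the difference from young was -0.16, a change of -10.5% (-15.2 to -5.56%, adjusted p = 0.0103). With treatment the difference was -0.024 (-0.10 to 0.054, adjusted p = 0.883). Within processing groups 1, 2 and 4 the difference of old control from young was -0.21, -0.040 and -0.12. Within groups 1 to 4 that of old anti-miR-mix from young was -0.20, -0.0087, -0.18 and -0.27. The difference was smallest in group 2 in both. Both values of group 2 used the same 1 young library, replicate 2, which was the lowest young library. Both values of group 1 also used 1 young library. DESeq2 called Dgcr8 in old control too (adjusted p = 0.0253). Dgcr8 lies at chr16:18253948-18289246 on the minus strand (GRCm38), and 825 of its 7696 exonic bases overlap Trmt2a on the other strand, from which an unstranded library cannot separate them. On its own strand its exons overlap the protein-coding Gm49776 by 327 bases and the microRNA genes Mir1306 and Gm24572 by 79 and 88 bases. Trmt2a itself differed by -0.043 in old control (adjusted p = 0.673) and by 0.030 in old anti-miR-mix (adjusted p = 0.779), each against young. The ratio of Dgcr8 to Drosha, as a difference in log2 CPM, had a mean of -2.19 in young, -2.38 in old control and -2.34 in old anti-miR-mix. It ranged from -2.28 to -2.10, from -2.50 to -2.26 and from -2.44 to -2.24 in these groups, so the young range overlapped both old ones.

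At the export step, Xpo5 carries precursor hairpins through the nuclear pore with Ran bound to GTP. Levels in log2 CPM ran from 5.91 to 6.03 in young (median 5.97), from 5.90 to 6.03 in old control (median 5.98) and from 5.81 to 6.01 in old anti-miR-mix (median 5.96). The groups overlapped, and old anti-miR-mix reached lowest through replicate 4 (5.81), with its other libraries at 5.92 or above. The log2 fold change was 0.0099 with age (95% interval -0.063 to 0.083, adjusted p = 0.918, edgeR) and -0.036 with treatment (-0.11 to 0.035, adjusted p = 0.774).

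At the dicing step, Dicer1 encodes the enzyme that cuts the loop from the precursor. The level in log2 CPM went from 6.49 to 6.60 in young (median 6.53), from 6.47 to 6.55 in old control (median 6.54) and from 6.47 to 6.58 in old anti-miR-mix (median 6.54). No group was higher or lower than another by these values. The log2 fold change was -0.017 with age (95% interval -0.077 to 0.044, adjusted p = 0.818, edgeR) and 0.016 with treatment (-0.042 to 0.074, adjusted p = 0.901). In percent the treated group differed from old control by 1.09%, with an interval from -2.90 to 5.25%. The Dicer1 3′UTR holds 2 miR-148a-3p matches and 1 miR-181a-5p match.

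The Argonautes bind the mature strand and hold it against the target. Ago1, Ago3 and Ago4 lie in tandem on chromosome 4, on the minus strand, with 5455 bases between Ago3 and Ago1 and 20957 bases between Ago1 and Ago4. Ago2, the Argonaute that can itself cut a fully paired target, lies on chromosome 15. The 4 genes are paralogs, and 50-base reads from shared stretches could be divided or left out by the authors' counting, whose setting for such reads was not stated.

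Ago3 spans chr4:126331704-126429556 (GRCm38) and has a 3′UTR of 12742 bases, the longest among the members. Its log2 CPM ranged from 6.86 to 7.13 in young (median 6.91), from 6.61 to 6.85 in old control (median 6.69) and from 6.57 to 6.83 in old anti-miR-mix (median 6.72). Every old library lay below every young library. The difference of old control from young was -0.23 ± 0.052 (SE), a change of -14.6% (95% interval -20.8 to -7.95%, adjusted p = 0.0227, edgeR). That of old anti-miR-mix from young was -0.22, a change of -14.1% (-20.1 to -7.63%, adjusted p = 0.00923). With treatment the difference was 0.0091 (-0.096 to 0.11, adjusted p = 0.973).

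Several single libraries decided whether Ago3 in old control passed the threshold, while its difference remained between -0.26 and -0.18 without any 1 library. Counting old control replicates 5 and 6 once, the difference was -0.21 and the adjusted p 0.0578, and leaving out young replicate 4, old control replicate 1, old control replicate 5 or old control replicate 6 gave adjusted p of 0.0626, 0.0523, 0.0582 and 0.0591. The difference was -0.18 without young replicate 4, the highest library, and -0.21, -0.21 and -0.20 without the 3 old control replicates in turn. Within processing groups 1, 2 and 4 the difference from young was -0.25, -0.058 and -0.28, with 1 young library in group 1 and 1 in group 2. Young replicate 4 was in group 3, which held no old control library. In old anti-miR-mix against young it was -0.36, -0.11, -0.26 and -0.20 within groups 1 to 4, and Ago3 was called there without any 1 library (adjusted p between 0.0071 and 0.0276, edgeR).

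Glial markers moved between the same groups. Of 7 oligodendrocyte markers, 5 were called lower in old control than in young (median difference -0.46), and their summed level ranged from 7255 to 11527 CPM in young and from 6408 to 7611 CPM in old control. In old anti-miR-mix it ranged from 6512 to 9623 CPM, and 0 of the 7 were called against young. Of 10 microglial markers, 1 was called higher in old control and 9 in old anti-miR-mix, each against young, with summed levels of 389 to 518 CPM in young, 504 to 591 CPM in old control and 592 to 794 CPM in old anti-miR-mix. Astrocyte markers were called higher for 1 and 3 of 7 genes and oligodendrocyte precursor markers lower for 2 and 2 of 4. In old control the 2 precursor markers called were Gpr17 (-0.91) and Bmp4 (-1.10). The other 2, Pdgfra and Cspg4, differed from young by 0.051 (adjusted p = 0.648, edgeR) and 0.0068 (adjusted p = 0.966). No marker of these 4 lists was at 0 in any library. Their part in the differences of Ago3 and Dgcr8 was not tested.

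Ago1 was the steadiest member. Its log2 CPM ranged from 6.93 to 7.00 in young (median 6.97), from 6.96 to 7.04 in old control (median 6.99) and from 6.87 to 6.98 in old anti-miR-mix (median 6.92). The treated libraries lay mostly below old control, with an overlap between 6.96 and 6.98. The difference with treatment was -0.067, or -4.56% (95% interval -7.99 to -1.0%), and the adjusted p of 0.315 (edgeR) was the lowest among the members but did not pass. Within processing groups 1, 2 and 4 it was -0.11, -0.063 and -0.10. With age the difference was 0.026 (95% interval -0.029 to 0.080, adjusted p = 0.661).

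Ago2 log2 CPM ranged from 7.20 to 7.34 in young (median 7.27), from 7.15 to 7.28 in old control (median 7.20) and from 6.99 to 7.32 in old anti-miR-mix (median 7.09). The treated libraries were the most spread, and replicates 3, 5 and 7 (7.21, 7.32 and 7.25) stood above the other 4 (6.99 to 7.09). The difference was -0.061 with age (95% interval -0.16 to 0.036, adjusted p = 0.532, edgeR), -0.058 with treatment (-0.15 to 0.035, adjusted p = 0.702) and -0.12 between old anti-miR-mix and young (-0.21 to -0.026, adjusted p = 0.128). Without old anti-miR-mix replicate 5 the last was -0.15 with an adjusted p of 0.034, so that this library decided the call. The exons of Ago2 overlap 219 bases of Chrac1 on the other strand.

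Ago4, the least abundant member, ranged from 4.36 to 4.47 log2 CPM in young (median 4.44), from 4.26 to 4.47 in old control (median 4.37) and from 4.19 to 4.47 in old anti-miR-mix (median 4.38). The highest libraries of the 3 groups were alike and the lowest differed. The difference was -0.050 with age (95% interval -0.16 to 0.058, adjusted p = 0.665, edgeR) and -0.042 with treatment (-0.15 to 0.063, adjusted p = 0.840). The 3′UTR of Ago4 holds 3 miR-148a-3p matches, at 107, 209 and 555 bases from the stop codon.

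The balance among the Argonautes was described as the share of each in their summed CPM per kilobase. Ago1 made up 41.8 ± 0.975% in young (SD, n = 6), 44.1 ± 0.790% in old control (n = 6) and 43.6 ± 1.06% in old anti-miR-mix (n = 7). Ago3 made up 20.1 ± 1.01% in young, 17.8 ± 1.03% in old control and 18.5 ± 0.672% in old anti-miR-mix. The lowest share of Ago3 in young was 19.17% and the highest in old control 19.15%, so these groups did not overlap, and those of young and old anti-miR-mix overlapped (highest 19.6%). Ago2 stayed between 29.4 and 29.8% and Ago4 between 8.37 and 8.44% in the group means. These shares depend on the length assigned to each gene, and with the longest transcript in place of the exonic length Ago3 made up 19.8, 17.6 and 18.3%. The shares repeat the measurements above on another scale and were not tested.

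**Figure D4:**
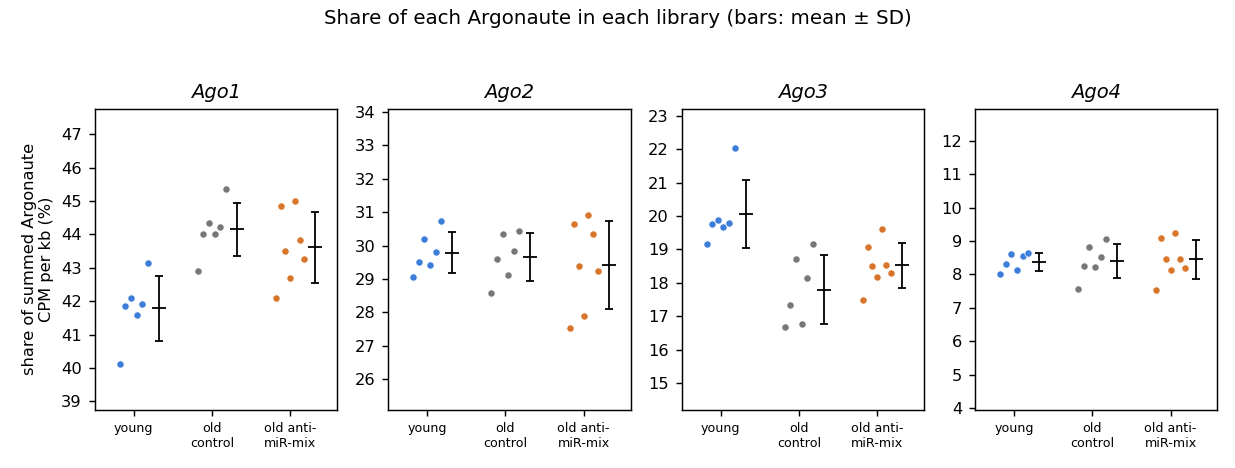
Share of each Argonaute in the summed CPM per kilobase of the 4 Argonautes, in percent, for every library, with mean and SD as bars. All panels span the same number of percentage points. In the young group the mean share of Ago3 is highest (20.1%) and that of Ago1 lowest (41.8%).

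The GW182 proteins bridge Argonaute to the deadenylases. Tnrc6a log2 CPM ranged from 6.94 to 7.16 in young (median 7.08), from 6.99 to 7.14 in old control (median 7.08) and from 6.98 to 7.27 in old anti-miR-mix (median 7.08). The groups had the same median, and the treated group reached highest. The difference was 0.014 with age (95% interval -0.092 to 0.12, adjusted p = 0.919, edgeR) and 0.042 with treatment (-0.060 to 0.14, adjusted p = 0.834). Tnrc6b ranged from 7.28 to 7.39 in young (median 7.31), from 7.29 to 7.53 in old control (median 7.35) and from 7.16 to 7.50 in old anti-miR-mix (median 7.32). Its difference was 0.048 with age (-0.056 to 0.15, adjusted p = 0.666) and -0.061 with treatment (-0.16 to 0.038, adjusted p = 0.705). The third family gene, Tnrc6c, is not among the 10 and ranged from 7.31 to 7.41 in young, from 7.42 to 7.51 in old control and from 7.31 to 7.54 in old anti-miR-mix. Its old control libraries all lay above the young ones, with a difference of 0.12 ± 0.036 (SE) that missed the threshold (adjusted p = 0.0733), and the difference with treatment was -0.065 (adjusted p = 0.538).

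The members with predicted miR-148a-3p sites can be read against the treatment side by side. Of the 7 predicted targets, Dicer1 and Tnrc6a had positive differences between old anti-miR-mix and old control, and Dgcr8, Ago1, Ago2, Ago4 and Tnrc6b had negative ones, with intervals that included 0 in all but Ago1. Drosha and Xpo5, which have no match, had differences of -0.063 and -0.036.

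Around the members, 88 further genes of the pathway were read from the same fit in 7 lists, and 87 were tested. Lin28a, with at most 1 read in a library, was not. With age 1 of the 87 was called, higher, against 2.67% of all genes called in either direction. In old anti-miR-mix against young 2 were called higher and 1 lower, against 6.2% of all genes called. With treatment none was called by edgeR, with 6 at an unadjusted p under 0.05, and DESeq2 called 0. Over all genes edgeR called 0.669% with treatment, and 10.5% had an unadjusted p under 0.05. The gene that rose with age was Lin28b, an RNA-binding protein that blocks maturation of the let-7 family. Its log2 CPM ranged from 1.69 to 2.37 in young (median 2.01), from 2.58 to 3.10 in old control (median 2.90) and from 2.63 to 2.96 in old anti-miR-mix (median 2.82), on 94 to 287 reads per library. All old libraries lay above all young ones, and the differences from young were 0.82 ± 0.11 (SE, adjusted p = 0.000361, edgeR) in old control and 0.74 ± 0.11 (adjusted p = 0.000144) in old anti-miR-mix.

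The other 2 calls were in old anti-miR-mix against young. Hsp90aa1, a chaperone that takes part in loading Argonautes, fell by 0.11 (adjusted p = 0.0386, edgeR). Pabpc1, the poly(A)-binding protein that GW182 proteins contact, rose by 0.15 (adjusted p = 0.0472). Neither was called when old control replicates 5 and 6 were counted once, while Lin28b was. The Dicer partners Tarbp2 and Prkra, which bind Dicer and double-stranded RNA, differed with age by 0.13 (adjusted p = 0.494) and 0.0073 (adjusted p = 0.966), and with treatment by -0.065 (adjusted p = 0.857) and 0.017 (adjusted p = 0.952).

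By list, the main edgeR fit called 0 of 11 Microprocessor cofactors and 0 of 6 nuclear export and import genes in any comparison. It also called 0 of 17 deadenylases and 0 of 15 Argonaute and GW182 partners. Each of these lists had 0 to 3 genes at an unadjusted p under 0.05 per comparison. Over all genes the share was 18.1% with age, 10.5% with treatment and 19.6% in old anti-miR-mix against young. DESeq2 called Tob1 and Tnrc6c of these lists with age and Zfp36 in old anti-miR-mix against young. Their medians with age were -0.0080, -0.037, -0.0013 and -0.016. Of the 10 Dicer partners and loading chaperones, 8 had negative differences in old anti-miR-mix against young, with a median of -0.11, and edgeR called Hsp90aa1. DESeq2 called Ahsa1, Fkbp4, Hsp90aa1 and Stip1 there and Fkbp4 with age. With the GC and length trend removed, edgeR called 6 of the 10 in old anti-miR-mix against young. These were Ahsa1, Dnajb1, Fkbp4, Hsp90aa1, Hsp90ab1 and Stip1. Without a filter on low counts, or with old control replicates 5 and 6 counted once, edgeR called none of the 10 there. The share of all genes called there by DESeq2 or with the trend removed is not given, so those calls lack a background. In the main fit 6.2% of all genes were called in old anti-miR-mix against young, and their median was 0.0028 over all genes tested. The 13 genes of precursor tailing, editing and decay had a median of 0.0019 with age and the 15 genes of decapping, decay and P-bodies one of -0.0089, against 0.0064 over all genes.

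**Figure D5:**
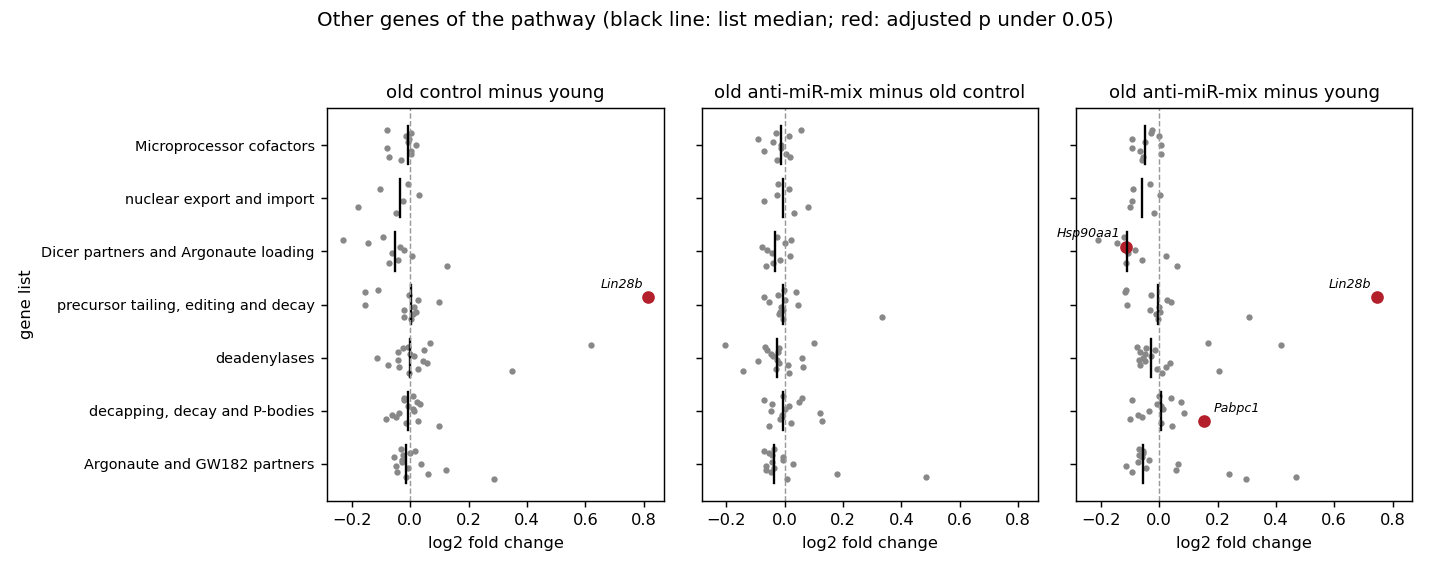
Log2 fold change of the 87 other pathway genes tested, by list, in the 3 comparisons. Black lines are list medians and red points passed an adjusted p of 0.05: Lin28b in both comparisons with young, and Hsp90aa1 and Pabpc1 in old anti-miR-mix against young.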

How the data were processed

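The authors prepared polyadenylated RNA from microdissected CA1 tissue with an unstranded TruSeq kit, sequenced single-end reads, aligned them to mm10 and deposited, for 19 libraries, raw read counts by Ensembl gene and log2 values of 18761 genes in a further table. The submitters' processing notes name FastQC 0.11.5, STAR 2.5.2b and featureCounts (Subread 1.5.1); the handling of reads that map to several places is not given in the sources used here. The deposited log2 values equalled log2(CPM + 1) minus a slope multiplied by the processing group number, to within 3.4e-08. These values were used only to infer that number and in an alternative. Of the columns with per-sample values, 0 were left without a sample.

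The genes kept had 5 or more reads in 50% or more of the libraries and held 99.95% of all reads. After TMM scaling, the quasi-likelihood test of edgeR 4.0.16 (R 4.3.3) was applied in one fit of the 3 groups with no covariate, two-sided, with Benjamini-Hochberg adjustment over all genes tested and a threshold of 0.05. Intervals are 95% intervals of the fit. Log2 CPM values used a prior count of 2. DESeq2 1.42.0 and limma 3.58.1 were run as alternatives, beside other filters and scalings, the processing group, a replicate block, removal of a trend on GC content and length (19225 genes with both), and leaving out each library. The edgeR step was tested on simulated data with changes larger than any seen in the members. That test therefore does not show how often changes of their size are missed. Symbols, exons and 3′UTRs were those of GENCODE M21 (GRCm38), which need not be the release the authors used, and the longest annotated 3′UTR of a gene was searched. Groups followed the sample descriptions; the titles of young and old control start with anti-miR-mix too. The labels do not give animals, litters or days, so p-values measure the spread between these samples. A count of 0 allows up to 3 reads.

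All members are named in the text, with Tnrc6c, Tarbp2 and Prkra and the pathway genes past the threshold. Host transcripts of microRNAs were to be named if past the threshold, and 9 were tested. Marker lists were used for 12 cell types. The members and lists were chosen with earlier results of these data known.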

Additional observations from a re-analysis of the deposited data

Results flagged for a closer look

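Among 30 sets of values (10 genes in 3 groups), 3 held a library whose gap to its nearest neighbour was large for the range of its group by Dixon's criterion at the 95% level. Chance flags about 1 in 20 such sets. Ago3 in young replicate 4 was at 7.13 log2 CPM, with the other young libraries between 6.86 and 6.93, and this is the library without which Ago3 was not called in old control against young. Tnrc6b in old control replicate 4 was at 7.53, with the others between 7.29 and 7.36. Xpo5 in old anti-miR-mix replicate 4 was at 5.81, with the others between 5.92 and 6.01.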

How the results depend on the processing

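The count of members called in old control against young was 1. It was 2 with DESeq2 and with the GC and length trend removed (Ago3 and Dgcr8), and 0 with old control replicates 5 and 6 as 1 library and with that and the processing group as a factor (a setting chosen after seeing the data, Ago3 adjusted p = 0.101). Leaving out single libraries gave 0 to 1. In old anti-miR-mix against old control it was 0 in all settings, and in old anti-miR-mix against young 2 in all settings but the omission of single libraries, which gave 2 to 3. Whether the replicate numbers pair the libraries could not be told. Of 18 same-number pairs, 9 correlated above 0.1 (between -0.46 and 0.44 in all), and 4 of the 19 libraries correlated best with one of the same number. A replicate block left 1, 0 and 2 members called. Reversed signs were all near 0: Xpo5 with age was -0.0099 by limma on the deposited values. Ago3 with treatment was -0.028 with the processing group as a factor, -0.0091 with replicates 5 and 6 as 1 library and -0.042 with both. Dicer1 in old anti-miR-mix against young was 0.0045 with a filter at 1 CPM, 0.0074 by limma, 0.018 with the GC and length trend removed, 0.0029 with replicates 5 and 6 as 1 library and 0.00047 with the processing group added. Tnrc6b there was 0.0051 with the trend removed, and Drosha 0.00021 with both changes. The cause was not tested. Leaving out single libraries, values that changed sign ranged from -0.013 to 0.039 (Ago3, treatment), -0.0079 to 0.013 (Dicer1, old anti-miR-mix against young), -0.026 to 0.012 (Drosha, the same), -0.048 to 0.011 (Tnrc6b, the same), -0.00038 to 0.033 (Tnrc6a, age) and -0.0014 to 0.031 (Xpo5, age). Over all genes the count called with age (514) was 914 by DESeq2, 323 without a filter, 290 with replicates 5 and 6 as 1 library, 221 with the processing group added, and 212 to 691 without single libraries. With treatment (129) it was 267 by DESeq2, 9 with the processing group as a factor, 249 with the replicate block, 48 with only the 2 groups, 28 with replicates 5 and 6 as 1 library, 4 with the processing group added, and 23 to 247 without single libraries. Other pathway genes called were 1 to 5 with age (main 1) and 1 to 12 in old anti-miR-mix against young (main 3). Matches of miR-181a-5p followed by an A were in 2 members in place of 4.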

Other observations

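The transcripts that host microRNAs were read from the same fit. Of 9 host transcripts tested, none was called by edgeR in any comparison, and 2 in each had an unadjusted p under 0.05. Mir124a-1hg, which hosts a copy of the neuronal miR-124, was the most abundant and differed by -0.14 in old control against young (adjusted p = 0.0978). Mir22hg differed by 0.18 in old control against young (adjusted p = 0.0753). Mir142hg, which hosts a microRNA of blood and immune cells, differed by 1.21 between old anti-miR-mix and old control (adjusted p = 0.152) on a mean of 7.16 reads per library, beside the higher microglial markers given above.

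The remaining marker lists held few calls. Against young, 1 of 6 CA3 markers was lower in old control, and 1 of 7 CA1 markers and 1 of 8 general neuronal markers were lower in old anti-miR-mix. The lists of dentate granule neurons, inhibitory neurons, endothelial cells, choroid plexus and blood held 0 calls in the 3 comparisons (edgeR), with 0 to 3 genes of each list at an unadjusted p under 0.05, the 3 being choroid plexus genes with age. Between old anti-miR-mix and old control 5 of 10 microglial markers were called, all higher, and no gene of the other 11 lists was, although all 7 oligodendrocyte markers had an unadjusted p under 0.05, all higher.

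Of the pathway genes that DESeq2 called and the main edgeR fit did not, 2 are named here, chosen after their values were seen. Tob1, an antiproliferative partner of the deadenylases, differed by 0.35 in old control against young (adjusted p = 0.0723, edgeR). In that comparison edgeR called Tob1 with the replicate block and with only the 2 groups compared. Zfp36, an mRNA-binding protein that recruits deadenylases, differed by 0.47 in old anti-miR-mix against young (adjusted p = 0.0842, edgeR).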
